A study of Rattus norvegicus with 9 samples.

Results

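Messages of 5 genes that act in RNA processing, nuclear transport, transcription and translation were followed in rat lung: Pop7, Magoh, Cse1l, Med16 and Eif4b. They were chosen by gene name, as the members of this functional group among the genes that the array's catalogue probes name, and 5 of 29 such genes belong to it. Each is measured by 1 probe printed in 10 spots, on arrays that carry 38804 probes other than control probes. Whole lung of male Wistar rats was hybridised to 1-colour Agilent arrays, 9 in all and 3 a group, which the labels call biological replicates. The CS rats were exposed to cigarette smoke for 90 days and the PM2.5 rats to fine particulate matter for 90 days, and both serve as rat models of COPD (chronic obstructive pulmonary disease). Control rats inhaled NS, left unexplained in the labels, for 90 days. Rats are given as 6 to 8 weeks old, which is shorter than the exposure and so is not the age at sampling. Lungs of replicates 1, 2 and 3 of each exposed group were archived after 90, 91 and 92 days, and those of all controls after 90 days.

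The 5 proteins work at successive steps in the life of an RNA. Med16 is a subunit of Mediator, the complex that links transcription factors to RNA polymerase II. Pop7, also called Rpp20, is a protein subunit of ribonuclease P, which trims the 5′ leader from precursor tRNA, and of the related ribonuclease MRP, which acts on precursor ribosomal RNA. Magoh is a core subunit of the exon junction complex, which is laid on messenger RNA at splicing and marks it for export, localisation and nonsense-mediated decay. Cse1l, also called CAS, is the exportin that returns importin alpha to the cytoplasm so that nuclear import can continue. Eif4b is a translation initiation factor that stimulates the RNA helicase eIF4A on the leader of messenger RNAs. Such genes are active in nearly all cells, so they mark no cell type of the lung.

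Promoter windows are held for 3 of the 5 genes in the RefSeq table used (build GRCr8), and the 250 bases before the start are shown so that the letters can be read beside the values of these genes. The windows are those of Cse1l at chr3:176059988-176060237, Magoh at chr5:127867836-127868085 and Med16 at chr7:10449049-10449298, all on the plus strand and written 5′ to 3′. Capitals mark matches to 6 motifs searched on both strands.
Cse1l: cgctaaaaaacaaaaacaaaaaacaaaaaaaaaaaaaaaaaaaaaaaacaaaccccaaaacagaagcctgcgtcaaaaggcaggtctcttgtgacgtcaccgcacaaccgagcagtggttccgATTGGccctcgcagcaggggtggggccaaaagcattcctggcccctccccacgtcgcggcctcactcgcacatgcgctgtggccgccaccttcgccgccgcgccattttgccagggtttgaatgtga
Magoh: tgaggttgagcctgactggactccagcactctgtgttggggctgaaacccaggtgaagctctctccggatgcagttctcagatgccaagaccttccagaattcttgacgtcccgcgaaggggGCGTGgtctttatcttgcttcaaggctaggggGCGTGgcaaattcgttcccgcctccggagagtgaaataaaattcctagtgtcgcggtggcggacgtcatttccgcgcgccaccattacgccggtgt
Med16: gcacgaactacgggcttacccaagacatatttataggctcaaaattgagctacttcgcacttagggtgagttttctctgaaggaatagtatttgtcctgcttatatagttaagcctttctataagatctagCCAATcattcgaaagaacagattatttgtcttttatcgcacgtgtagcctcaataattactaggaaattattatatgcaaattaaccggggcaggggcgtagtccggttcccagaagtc
The Magoh window held GCGTG, the core of the xenobiotic response element, at 128 and 96 bases before the start, and 25.9% of 33469 windows of the same length held it at least once. The CCAAT box was found at 127 bases in Cse1l (as ATTGG) and at 119 bases in Med16, and 34.0% of all windows held it. No match was found in the 3 windows for TGACNNNGC, the antioxidant response element core (10.1% of all windows), for CCGGAAG, bound by ETS factors (7.27%), for the NRF1 motif (0.762%) or for GGGCGG, the GC box (30.5%). The share of G and C was 52.8% in Cse1l, 56.8% in Magoh and 40% in Med16, against a median of 51.2% over all windows. These matches describe the letters only.

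Before the results, the limits of these arrays have to be known. Arrays with the same scan start time were taken to share a slide, so slide is inferred here from scan time. By this rule the 3 control arrays shared 1 slide, which was scanned on day 2. The 6 exposed arrays came from 3 further slides scanned on day 1. Control status therefore cannot be told apart from slide or from scan day. The 75th percentile of signal was 325 to 338 on control arrays and 159 to 257 on exposed arrays. Levels are given as log2 signal relative to that percentile, and on this scale the median probe changed by 0.44 in CS and by 0.50 in PM2.5 against control, but by 0.06 and 0.07 after quantile scaling, which gives all arrays the same distribution. The mean of the 10 E1A control probes relative to the percentile was −3.43 to −3.22 on control arrays. It was −3.00 to −2.29 on CS and −3.12 to −2.07 on PM2.5 arrays, and these probes were not used for scaling. The control arrays were also the most alike, with a median SD of 0.08 per probe against 0.22 in CS and 0.27 in PM2.5. Whether the 3 control arrays hold RNA of separate rats or repeat 1 RNA was not settled here beyond their label. If they repeat 1 RNA, their SD is technical and the p-values against control are too small, so fits with the controls averaged into 1 sample are given beside the calls. Of 30 lung cell markers listed for this work, 0 has a named probe, so the tissue label was not checked against markers. The same holds for the 72 other genes listed for ribonuclease P, translation initiation, nuclear transport, the exon junction complex and Mediator, so the results describe these 5 genes and not their complexes.

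All 5 probes were well above background. Every one of the 90 spots of each gene on the 9 arrays had that status, and the median spot read 55.0 to 127 times the local background for Pop7 and 8.63 to 23.3 times for Med16, the dimmest of the 5. Spots flagged as outliers were left out, which removed 11 of 90 spots for Pop7 (6 of them on control arrays), 2 each for Cse1l and Magoh and 1 each for Eif4b and Med16. The median SD between spots of 1 array was 0.10 for Pop7, 0.11 for Eif4b, 0.13 for Cse1l, 0.10 for Magoh and 0.07 for Med16, in log2 units. With 7 to 10 spots averaged, the standard error of an array's level from spot noise was at most 0.07.

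**Figure D1:**
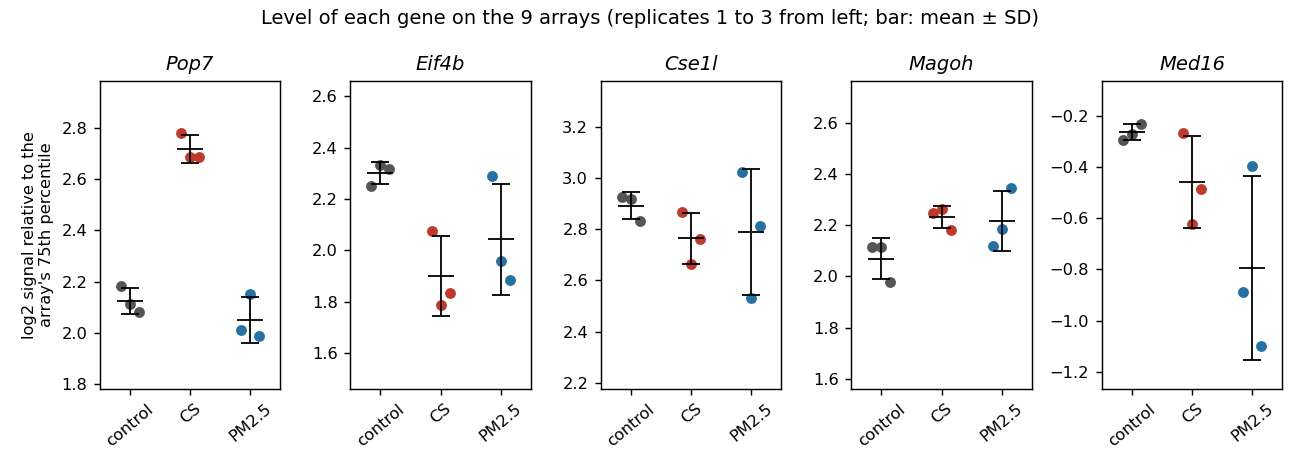
Log2 signal relative to each array's 75th percentile (vertical axis) for the 5 genes on the 3 control, 3 CS and 3 PM2.5 arrays, with points for arrays and bars for mean ± SD (n = 3); every panel spans the same number of log2 units. Pop7 sits at 2.69 to 2.78 in CS, above all other arrays. Eif4b has its lowest mean in CS, where its arrays overlap with those of PM2.5, and Med16 reaches −1.10 on a PM2.5 array.

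The tRNA-processing gene Pop7 was higher in smoke-exposed lungs than in either other group, and none of the other 4 genes was called upward in CS on this scale. Its level was 2.78, 2.69 and 2.69 on CS arrays 1 to 3, 2.01, 2.15 and 1.99 on PM2.5 arrays and 2.18, 2.11 and 2.08 on control arrays. Every CS array stood above every control and PM2.5 array, while control and PM2.5 arrays overlapped. The order of the means was therefore CS (2.72 ± 0.05, SD, n = 3), control (2.13 ± 0.05, SD, n = 3) and PM2.5 (2.05 ± 0.09, SD, n = 3), and the last pair did not differ beyond their spread. In CS against control, Pop7 rose by 0.59 log2 units, or 1.51-fold (SE 0.11, 95% interval 0.35 to 0.83, limma adjusted p = 0.00392). In bulk lung, a change in the cells that make up the tissue and a change of RNA per cell cannot be told apart.

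The rise of Pop7 is one of scaled levels. The unscaled signal was 1321 ± 121 (SD, n = 3) on CS, 1451 ± 69.7 on control and 809 ± 193 on PM2.5 arrays, so a dimmer CS array showed nearly the control signal for Pop7. Beside the probes nearest to it in level, whose median change was 0.16, Pop7 lay 0.43 log2 units higher, and 83.1% of them changed less upward. Over all probes tested this share was 64.9%. After quantile scaling the rise was 0.49 (adjusted p = 0.00622), and with the authors' log2 values, where Pop7 read 10.5 ± 0.06 (SD, n = 3) in CS, 10.0 ± 0.04 in control and 9.90 ± 0.12 in PM2.5, it was 0.49 (adjusted p = 0.00653). After centring on the median of the probes well above background on all 9 arrays, it was 0.21 and did not pass (adjusted p = 0.215). It was also lost with slide as a random block (0.58, adjusted p = 0.0628) and when the 3 controls were averaged into 1 sample (0.59, adjusted p = 0.182). It passed in all 9 fits that left out 1 array, with adjusted p of 0.00294 to 0.0250.

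The single spots of Pop7 showed the same separation. The 27 CS spots used lay between 2.32 and 2.92, and the 24 control spots between 1.93 and 2.28, so all 27 were above the brightest control spot. A flagged spot of CS array 3 that was left out read 2.27, just below that control spot. At the 9 positions with usable spots in both groups, the change ran from 0.42 to 0.69. Spots of an array share 1 RNA sample, so they describe the precision of each array and add no replicate.

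**Figure D2:**
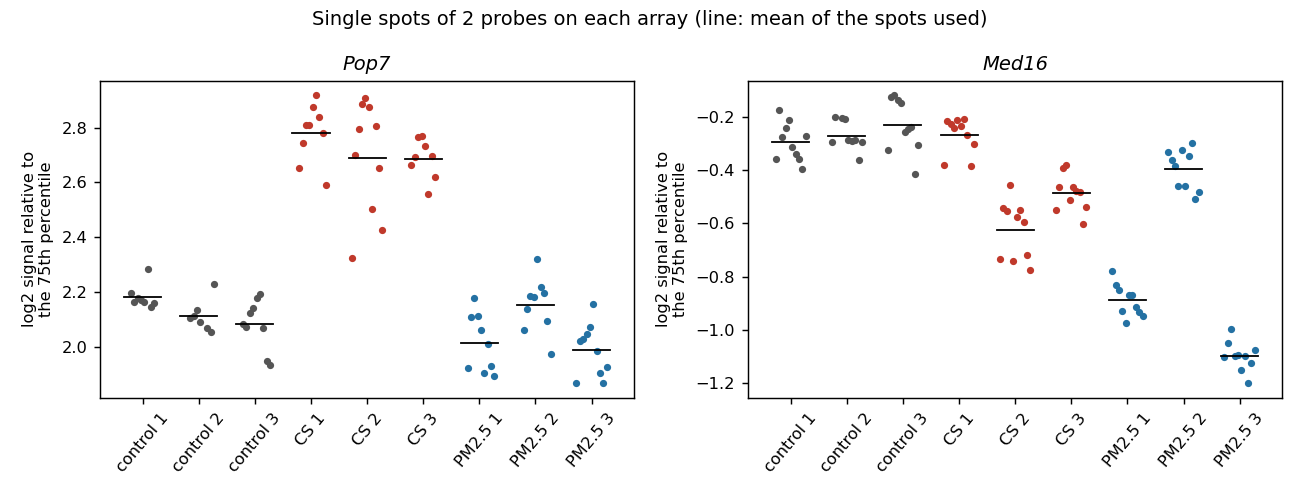
Log2 signal of each usable spot relative to the array's 75th percentile (vertical axis) for Pop7 and Med16 on the 9 arrays (horizontal axis), with a line at the mean of the spots. Pop7 spots of CS arrays (2.32 to 2.92) lie above all control spots (up to 2.28), and Med16 spots separate PM2.5 arrays 1 and 3 from PM2.5 array 2.

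The translation initiation factor gene Eif4b fell in CS lungs. Its level was 2.08, 1.79 and 1.83 on CS arrays 1 to 3, 2.29, 1.96 and 1.88 on PM2.5 arrays and 2.25, 2.33 and 2.32 on control arrays. All CS arrays were below all control arrays, and the PM2.5 arrays spread over both, with array 1 at the control level. By mean the order was control (2.301 ± 0.043, SD, n = 3), PM2.5 (2.04 ± 0.22) and CS (1.90 ± 0.16), and neither neighbouring pair in that order passed the test. The change in CS against control was −0.40 log2 units, or 0.757-fold (SE 0.14, 95% interval −0.72 to −0.08, limma adjusted p = 0.0424). It was −0.49 after quantile scaling (adjusted p = 0.0200) and −0.55 beside probes of like level, of which 17.0% changed more downward.

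The Eif4b call is a narrow one. It was lost without CS array 2 (adjusted p = 0.0869), CS array 3 (0.115), control array 1 (0.0970), control array 2 (0.118) or control array 3 (0.104), while the change stayed between −0.49 and −0.35. It was also lost with normexp background correction (−0.39, adjusted p = 0.276), slide as a random block (−0.43, adjusted p = 0.197), the replicate number as a block (adjusted p = 0.0634) and the controls averaged into 1 sample (adjusted p = 0.308). In PM2.5 against control Eif4b changed by −0.26 (SE 0.14, 95% interval −0.58 to 0.06, limma adjusted p = 0.138) and did not pass. Without PM2.5 array 1, where it stood at the control level, that change was −0.38 and passed (adjusted p = 0.0441). After centring on the median Eif4b changed by −0.79 in CS (adjusted p = 0.00359) and by −0.70 in PM2.5 (adjusted p = 0.00465), and both passed.

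The Mediator subunit gene Med16 fell in PM2.5 lungs. Its level was −0.89, −0.40 and −1.10 on PM2.5 arrays 1 to 3, −0.27, −0.62 and −0.49 on CS arrays and −0.29, −0.27 and −0.23 on control arrays. All PM2.5 arrays were below all control arrays, with PM2.5 array 2 the closest to them, and PM2.5 and CS arrays overlapped. The means ran from control (−0.27 ± 0.03, SD, n = 3) through CS (−0.46 ± 0.18) to PM2.5 (−0.79 ± 0.36), and neither neighbouring pair passed. The change in PM2.5 against control was −0.53 log2 units, or 0.693-fold (SE 0.18, 95% interval −0.94 to −0.12, limma adjusted p = 0.0337).

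After quantile scaling Med16 changed by −0.61 in PM2.5 (adjusted p = 0.0170), after centring on the median by −0.97 (adjusted p = 0.000275), and beside probes of like level by −0.70, with 13.6% of them changing more downward. Of the 30 PM2.5 spots, 24 were below the dimmest control spot. The call was lost without PM2.5 array 1 (−0.48, adjusted p = 0.0916), PM2.5 array 3 (−0.38, adjusted p = 0.0817), CS array 3 (adjusted p = 0.0503) or control arrays 1, 2 or 3 (adjusted p = 0.0796, 0.0827 and 0.0856). Without PM2.5 array 2 the change was −0.73 (adjusted p = 0.00588). The call was also lost with normexp background correction (−0.38, adjusted p = 0.243), slide as a random block (−0.50, adjusted p = 0.168), the replicate number as a block (adjusted p = 0.0610) and the controls averaged into 1 sample (adjusted p = 0.246). In CS against control the change of Med16 was −0.19 (95% interval −0.60 to 0.22, limma adjusted p = 0.371), and after centring on the median it was −0.58 and passed (adjusted p = 0.00754).

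The exportin gene Cse1l and the exon junction gene Magoh passed in no comparison on this scale. Cse1l had a level of 2.87, 2.66 and 2.76 on CS arrays 1 to 3, 3.02, 2.53 and 2.81 on PM2.5 arrays and 2.93, 2.92 and 2.83 on control arrays. The groups overlapped, and the PM2.5 arrays spanned 0.49 log2 units, against 0.09 among controls. By mean the order was control (2.89 ± 0.05, SD, n = 3), PM2.5 (2.79 ± 0.25) and CS (2.76 ± 0.10), with no pair apart on this scale. After quantile scaling the CS arrays were all below the control arrays. The change of Cse1l was −0.13 in CS (95% interval −0.45 to 0.19, limma adjusted p = 0.446) and −0.10 in PM2.5 (95% interval −0.42 to 0.22, limma adjusted p = 0.537). After centring on the median the changes were −0.51 in CS, which did not pass (adjusted p = 0.0604), and −0.54 in PM2.5, which did (adjusted p = 0.0388).

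Magoh, which takes part in marking spliced messages, stood slightly higher in both exposed groups on this scale. Its unscaled signal was lower in both, at 943 ± 86.9 (SD, n = 3) on CS, 928 ± 333 on PM2.5 and 1397 ± 101 on control arrays. The scaled level of Magoh was 2.25, 2.26 and 2.18 on CS arrays 1 to 3, 2.12, 2.18 and 2.35 on PM2.5 arrays and 2.12, 2.12 and 1.98 on control arrays. Both exposed groups stood above the control arrays without overlap, the lowest PM2.5 array only barely. After quantile scaling both overlapped with the control arrays. The means ran from CS (2.23 ± 0.04, SD, n = 3) through PM2.5 (2.22 ± 0.12) to control (2.07 ± 0.08). The change was 0.16 in CS (95% interval −0.09 to 0.41, limma adjusted p = 0.234) and 0.15 in PM2.5 (95% interval −0.10 to 0.40, limma adjusted p = 0.269), so neither passed. Beside probes of like level the changes were −0.01 and 0.05, and after centring on the median −0.22 and −0.29, so the sign of the Magoh change depends on the scaling.

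Counted over the 5 genes, CS against control called 2, Pop7 upward and Eif4b downward, where 47.5% of 37643 probes tested were called (39.0% upward and 8.48% downward). PM2.5 against control called 1, Med16 downward, where 56.9% of probes were called (47.1% upward and 9.84% downward). After quantile scaling the same genes were called, where 24.7% of probes were called in CS and 29.7% in PM2.5. The groups did not overlap for 3 of the 5 genes in CS, where they did not for 69.8% of all probes (56.8% higher and 13.0% lower), and for 2 of the 5 in PM2.5, where they did not for 69.0% (55.8% higher and 13.1% lower). With 5 genes, 1 gene is 20% of them, so these shares are coarse, and nothing particular to the group is read from them. Both comparisons share the control arrays.

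**Figure D3:**
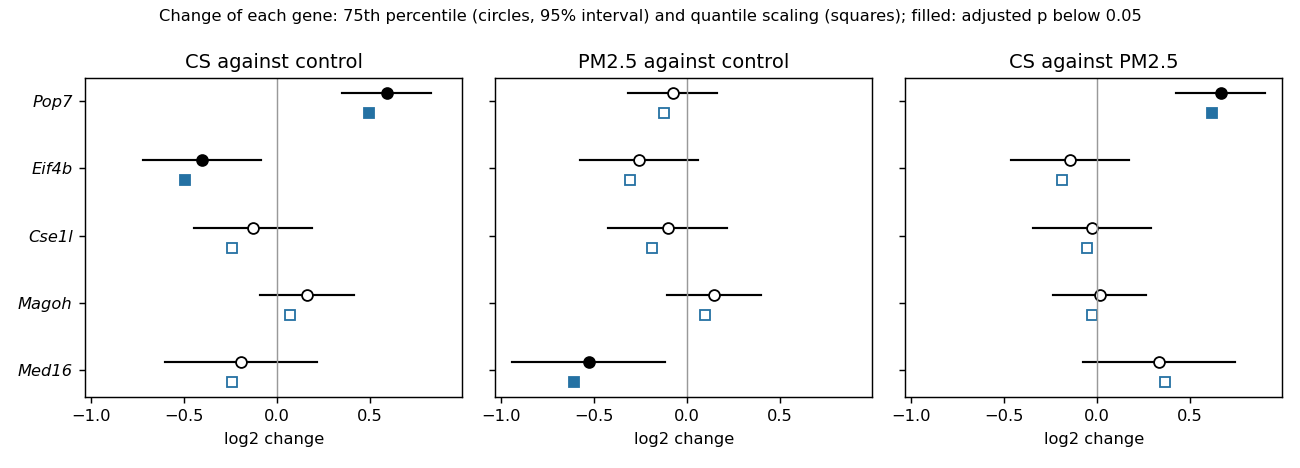
Log2 change of each gene (horizontal axis) in the 3 comparisons, as black circles with 95% intervals for the 75th percentile scaling and blue squares for quantile scaling; filled symbols passed at an adjusted p below 0.05. Pop7 passed in CS against control (0.59) and against PM2.5 (0.67), Eif4b in CS (−0.40) and Med16 in PM2.5 (−0.53), under both scalings.

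Set directly against each other, the exposures differed in Pop7. Pop7 was 0.67 log2 units, or 1.59-fold, above its PM2.5 level in CS lungs (SE 0.11, 95% interval 0.43 to 0.91, limma adjusted p = 0.00652), and this test is also that of the difference between the effects of CS and PM2.5 on Pop7. Of the 5 genes 1 was called, where 5.91% of probes were called (3.18% higher and 2.74% lower in CS). The groups did not overlap for Pop7 alone, against 19.4% of all probes (8.92% higher and 10.5% lower in CS). All 27 CS spots used were above the brightest of 28 PM2.5 spots, the lowest only barely (2.324 against 2.321). The flagged spot of CS array 3 that was left out read 2.27, below that PM2.5 spot. Of the probes of like level, 93.9% had a smaller difference. The difference was 0.62 after quantile scaling, 0.73 after centring on the median and 0.61 with the authors' log2 values, and passed in each (adjusted p = 0.00418, 0.00559 and 0.00450). With quantile scaling 8.73% of probes were called. In PM2.5 against control Pop7 changed by −0.08 (95% interval −0.31 to 0.16, limma adjusted p = 0.547). After centring on the median that change was −0.52 and passed (adjusted p = 0.00817).

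The size of this difference uses no control array, but its test takes part of its spread from the control arrays. On the single slide shared by both exposures, with 2 arrays of each, it was 0.60, with CS arrays 2 and 3 at 2.69 each and PM2.5 arrays 1 and 2 at 2.01 and 2.15. With slide as a fixed block, which gives the same 0.60 with the spread of the control arrays added, it passed (SE 0.12, adjusted p = 0.0328), as it did with slide as a random block (adjusted p = 0.00612) and with the replicate number, which marks the same archiving time in both exposed groups, as a block (adjusted p = 0.0367; 1240 probes called, against 2226 without the block). In fits of those 4 arrays alone (SE 0.21, adjusted p = 0.200), of the 6 exposed arrays alone (SE 0.15, adjusted p = 0.0815) or with normexp background correction (0.65, adjusted p = 0.0623) it did not pass. It passed in all 9 fits that left out 1 array (0.64 to 0.72, adjusted p of 0.00768 to 0.0252).

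The other 4 genes did not pass between the exposures. Med16 was 0.33 higher in CS (SE 0.18, 95% interval −0.07 to 0.74, limma adjusted p = 0.402), and only 0.09 higher on the shared slide. Eif4b was lower in CS by a log2 difference of −0.14 (95% interval −0.46 to 0.17, limma adjusted p = 0.727), and by −0.31 on the shared slide. Cse1l (−0.03, 95% interval −0.34 to 0.29) and Magoh (0.01, 95% interval −0.24 to 0.27) had differences near 0 with intervals on both sides of it.

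A measure that carries no scaling between arrays is the difference between the log2 signals of 2 genes on the same array. Its size has no meaning, since probes bind differently, but its shift between groups shows unequal change of the 2 probe signals. Against control, such a shift cannot be told apart from slide or scan-day differences that act unequally on probes. Pop7 minus Eif4b was 0.70, 0.90 and 0.85 on CS arrays 1 to 3, −0.28, 0.19 and 0.10 on PM2.5 arrays and −0.07, −0.22 and −0.24 on control arrays. The CS arrays stood apart from all others by more than the whole spread within any group. The shift was 0.99 log2 units in CS against control, a 1.99-fold change of the ratio (SE 0.08), and 0.81 in CS against PM2.5 (SE 0.16). In an exact two-sided permutation test over 3 against 3 arrays, p was 0.10 for both, the smallest that this design allows, and 0.20 after Benjamini-Hochberg adjustment over 30 such tests.

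The difference of Pop7 to each of the other 4 genes was higher in CS than in control arrays, by 0.99 against Eif4b, 0.72 against Cse1l, 0.43 against Magoh and 0.79 against Med16, with no overlap of the arrays in any of the 4. In the same comparison the value for Eif4b was −0.27 against Cse1l, −0.56 against Magoh and −0.21 against Med16. Over all 10 pairs, the arrays did not overlap in 9 in CS against control, where 76.6% of 406 pairs of named genes did not. In PM2.5 against control they did not overlap in 3 of 10 pairs (72.2% of all pairs), Magoh minus Med16 (0.68), Pop7 minus Med16 (0.45) and Pop7 minus Magoh (−0.22). In CS against PM2.5 they did not overlap in 3 of 10 pairs (29.3% of all pairs), all of them with Pop7. No pair passed after adjustment.

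**Figure D4:**
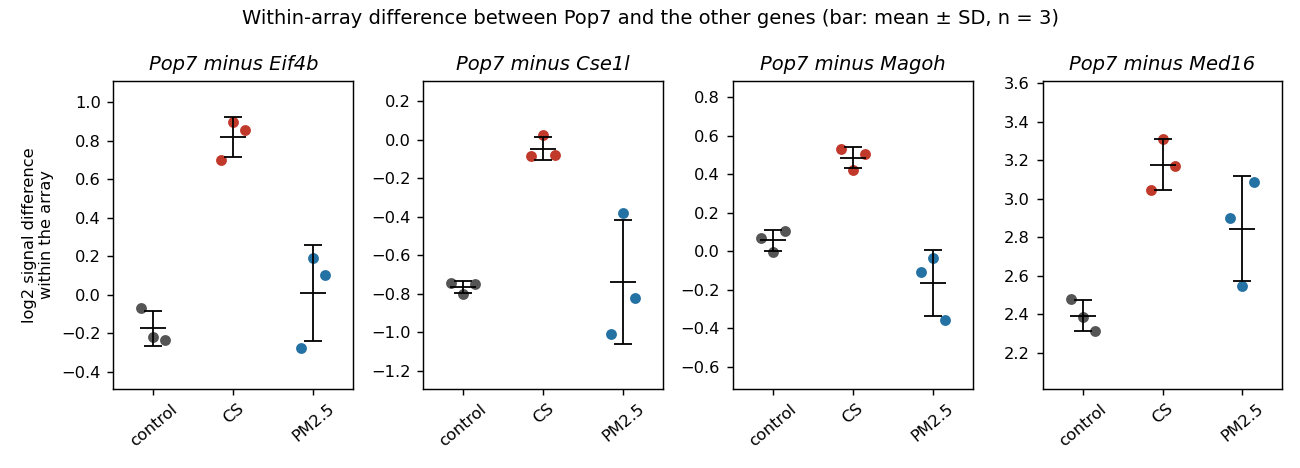
Difference between the log2 signal of Pop7 and that of each other gene on the same array (vertical axis, log2 units) for the 3 groups, with points for arrays and bars for mean ± SD (n = 3); every panel spans the same number of log2 units. CS arrays lie above all control arrays in each panel, and above all PM2.5 arrays except in the panel for Med16.

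Across the 9 arrays, the 5 genes did not vary as a group. The Pearson correlation of levels ran from −0.77 between Eif4b and Magoh to 0.70 between Eif4b and Cse1l, and Pop7 correlated at −0.54 with Eif4b and 0.29 with Med16. All values here share the arrays and their scaling and take in the differences between groups, so they are descriptions. Among the 24 other named genes, the nearest to Pop7 were Nlrp3 (0.75), Slc28a2 (0.73) and Gdnf (0.57), and after quantile scaling Nlrp3 stood at 0.36 and Gdnf came first (0.83). With group means removed, the correlation of Pop7 with Slc28a2 was −0.58. The nearest to Eif4b were Mex3c (0.89), Pdcd10 (0.84) and Pdk3 (0.84), while after quantile scaling Map2, at −0.18 before it, came first (0.90) and Mex3c and Pdk3 ranked 6 and 7. Cse1l lay nearest to Pld1 (0.85), Ndfip2 (0.81) and Cdh2 (0.73), and with group means removed its correlation was 0.96 with Pld1 and 0.98 with Ndfip2. Magoh had no close neighbour, with Enpp1 (0.58), Odf2l (0.55) and Gdnf (0.50) ranking first, and with group means removed these were 0.12, −0.23 and −0.42. Med16 lay nearest to Ppp2r2b (0.85), Nlrp3 (0.78) and Ptk2b (0.74), and with group means removed these were 0.64, 0.91 and 0.23.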

How the data were processed

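Lung RNA was labelled for 9 arrays with the Agilent Quick Amp kit, per the labels, from 10 µg of total RNA. The labels call the arrays of a group biological replicates; for the control arrays this was not settled, which is why 1 alternative averages them into 1 sample. The deposited scanner files hold 1-colour intensity values on a linear scale from Agilent Feature Extraction 11.0.1.1, background subtracted within each array and not normalized between arrays, per the file headers. The deposited files also hold flags of 0 or 1 as other values. The authors' table holds log2 values with nearly equal distributions across arrays; the steps behind it are not given in the sources used here.

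Spots flagged as outliers were left out, log2 signals of the spots of a probe were averaged, and each array's 75th percentile over non-control spots was subtracted. Probes had to be well above background on each array of 1 or more groups (37643 kept). The 3 comparisons came from 1 fit of all arrays in limma 3.58.1 (R 4.3.3; lmFit and eBayes, two-sided). A probe was called at a Benjamini-Hochberg adjusted p below 0.05 over all probes tested. The fit was tested on simulated data. Alternatives changed the scaling, the background correction, the filters, the spot summary, the variance model, the blocks for slide or replicate number, the samples fitted and the threshold, and left out each array in turn.

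Genes were named by matching probe accessions to RefSeq genes, and gene positions are left out since the build in the array header is another one. The number of arrays, 3 a group, limits the precision. The 5 genes are named in full, with the 3 named genes most like each over the arrays. Members, gene lists and alternatives were chosen with earlier results of these data known.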

Additional observations from a re-analysis of the deposited data

Results flagged for a closer look

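The effects of the exposures on Pop7 differed in the main fit: the CS effect minus the PM2.5 effect was 0.67 log2 units (limma adjusted p = 0.00652), with all 3 CS arrays above all 3 PM2.5 arrays. It did not pass in limma fits of the exposed arrays alone (adjusted p = 0.0815), of the shared slide alone (0.200) or with normexp (0.0623). For the other 4 genes this difference did not pass. Groups of 3 arrays are too small for a test of single outlying arrays.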

How the results depend on the processing

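The alternatives were all planned, but with earlier results of these data known. Over them, the changes of Pop7 and Eif4b in CS, Med16 in PM2.5 and Pop7 between exposures kept their sign. With 3 arrays a group and controls alone on their slide, calls against control depend on how the spread is estimated. Probes called in CS against control (17865) numbered 9289 with quantile scaling, 9094 with median centring, 2387 with normexp, 9326 with the authors' values, 33636 with array weights (a fit that stopped before it converged), 2299 with slide as a random block, 165 with controls as 1 sample and 6600 at an adjusted p below 0.01. For PM2.5 against control (21416) these were 11177, 12524, 3034, 11229, 31035, 7777, 1465 and 11016. For CS against PM2.5 (2226) they were 512 with normexp, 16324 with array weights, 630 with the 2 groups alone, 389 on the shared slide alone and 922 at an adjusted p below 0.01. Upward calls made up 14673 of 17865 in CS and 17712 of 21416 in PM2.5, against 4455 of 9289 and 5442 of 11177 with quantile scaling, 2879 of 9094 and 4770 of 12524 with centring, 1224 of 2387 and 1572 of 3034 with normexp and 4533 of 9326 and 5529 of 11229 with the authors' values.

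Of the 5 genes, limma called 2 in CS, 1 in PM2.5 and 1 between exposures. The counts were 4 in PM2.5 with centring; 5 in CS and 4 between exposures with array weights; 1, 0 and 0 with normexp (2, 1 and 1 at an unadjusted p below 0.05); 0 in CS and 0 in PM2.5 with slide as a random block or controls as 1 sample (1 and 0 unadjusted in each); 0 between exposures with the 2 groups alone or the shared slide alone (1 unadjusted in each); and 1 in CS and 0 in PM2.5 at an adjusted p below 0.01. With the replicate number as a block the counts were 1 in CS and 0 in PM2.5 (2 and 1 unadjusted), and 1240 probes between exposures. Deviations of same-numbered arrays correlated at −0.45 to 0.18, so apart from the archiving time the numbers show no pairing. Leaving out 1 array gave 8204 to 22027 probes in CS, 13467 to 24988 in PM2.5 and 1347 to 2584 between exposures, and 1 to 2, 0 to 1 and 1 to 1 of the 5 genes. Changes that passed in neither setting turned sign: Magoh with centring (−0.22 in CS, −0.29 in PM2.5), Magoh between exposures with quantile scaling (−0.025) and the authors' values (−0.025), Cse1l between exposures with centring (0.033) and normexp (0.0087), and Cse1l in PM2.5 with array weights (0.087). Leaving out an array turned Cse1l between exposures to 0.025 (without CS 2) and 0.092 (without PM2.5 1; lowest −0.154), Cse1l in PM2.5 to 0.026 (without PM2.5 2), and Magoh between exposures (highest 0.079) to −0.0014 (without CS 2), −0.034 (without PM2.5 1) and −0.0017 (without PM2.5 2). The cause of these differences was not tested.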
